A study of Bos taurus with 14 samples.

Results

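The miRNAs bta-miR-191, bta-miR-425-5p and bta-miR-425-3p come from a pair of hairpins that lie next to each other in the genome. They were chosen by name as the mature products of this locus, and they are 3 of the 1030 mature miRNA names in the count table of peripheral white blood cells (PWBC), of which 614 had a count in any heifer. Each of the 3 has 1 row there. All 3 passed the filter on low values, a CPM (counts scaled to the same library total) of at least 1 in at least 7 heifers, which kept 341 names for testing.

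PWBC were taken at weaning from 14 Angus-Simmental crossbred heifers, and 1 small RNA library was sequenced per animal. The fertile heifers (FH, n = 7) later became pregnant to artificial insemination (AI), and the subfertile heifers (SFH, n = 7) did not become pregnant. The comparison asks whether blood miRNAs at weaning differ between heifers by later fertility. Each library held between 1754971 and 5468341 counts on mature miRNAs, with a median of 3319368 in FH and 2663375 in SFH. The labels give no sequencing batch, and PWBC are a mixture of leukocytes. In such bulk samples, fewer cells of a type and less of a miRNA per cell cannot be told apart.

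A miRNA is cut from a hairpin within a longer primary transcript, and either arm of the hairpin (5p or 3p) can give a mature miRNA that guides the silencing of matching mRNAs. The miR-191 and miR-425 hairpins lie in an intron of DALRD3 in the human genome and are known there to be made from a shared primary transcript. miR-191 is abundant in blood cells and many other tissues, and both miRNAs have been studied in cell growth and immune cells. RefSeq genes of ARS-UCD2.0 (the files use an earlier assembly) give an order on chromosome 22 of NDUFAF3, MIR191, MIR191B, MIR425 and DALRD3, with the hairpins outside the bounds given for DALRD3. MIR191B overlaps MIR191 there, so reads of these 2 genes may have been split by the counting.

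bta-miR-191 was the most abundant product of the locus. It held 4.45% of all mature miRNA counts and had rank 7 by mean CPM among the 341 names, with ranks from 3 to 9 in single heifers. In FH its CPM was lowest at 39944 and highest at 58871, with a median of 43563. In SFH the lowest was 32935, the median 42414 and the highest 47155. The groups overlapped: 3 FH heifers (20, 25 and 29) were above every SFH heifer and 3 SFH heifers (28, 30 and 32) were below every FH heifer. FH had a mean of 46702 ± 7126 CPM and SFH of 41073 ± 5307 CPM (SD, n = 7 each). The edgeR quasi-likelihood fit gave a log2 fold change (SFH over FH) of -0.27 (SE 0.15), with an unadjusted p of 0.0867 and an adjusted p of 0.890 among 341 names. The exact permutation test on log2(TMM-normalized CPM + 0.5) gave a difference of -0.25 with p = 0.0828.

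bta-miR-425-5p, the dominant arm of the miR-425 hairpin, had rank 24 by mean CPM and held 1.04% of all counts, with ranks from 13 to 38 in single heifers. Its CPM in FH was lowest at 4738 and highest at 14685, with a median of 8923. In SFH the lowest was 7549, the median 10979 and the highest 19881. SFH heifer 21 was above every FH heifer, FH heifers 22, 25 and 29 were below every SFH heifer, and the other heifers of the groups overlapped. Mean levels were 9128 ± 3220 CPM (FH) and 12312 ± 4071 CPM (SFH; SD, n = 7 each). The log2 fold change was 0.37 (SE 0.22), with an edgeR p of 0.107 and an adjusted p of 0.890. The exact permutation test gave a difference of 0.38 with p = 0.145. FH heifer 27 had the highest FH value. Without it the fold change was 0.54 with an edgeR p of 0.0189 and an adjusted p of 0.455. This was past both thresholds (p of 0.05 or less, and a log2 fold change of 0.5 or more in either direction). In that fit 19 of 341 names passed them, against 13 of 341 in the fit of all heifers. Without SFH heifer 21 the fold change of bta-miR-425-5p was 0.21.

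bta-miR-425-3p, the minor arm, had rank 113 and held 0.0257% of all counts. Its CPM in FH was lowest at 183 and highest at 328, with a median of 244. In SFH the lowest was 171, the median 270 and the highest 387. The SFH values spread past the FH values at both ends, with heifers 17 and 21 above and heifer 26 below every FH heifer. Mean levels were 261 ± 53.0 CPM (FH) and 269 ± 80.4 CPM (SFH; SD, n = 7 each). The log2 fold change was -0.02 (SE 0.23), with an edgeR p of 0.920 and an adjusted p of 0.977. The value was 0.04 with upper-quartile scaling and 0.04 with library totals only, which moved the median of all names from 0.06 to 0.12 in both cases, so that relative to the median it was not higher in SFH.

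None of the 3 passed the thresholds in the fit of all heifers. Over all names tested, 13 of 341 (3.81%) passed them, 5 higher and 8 lower in SFH; with limma-voom the split was 15 higher and 8 lower. With adjusted p at most 0.05 the edgeR count was 0 of 341 (0%), with 20 names at an unadjusted p of at most 0.05 and an adjusted count of 2 with DESeq2 and 0 with limma-voom. bta-miR-191 was lower and bta-miR-425-5p higher in SFH under each scaling run, but neither difference passed.

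**Figure D1:**
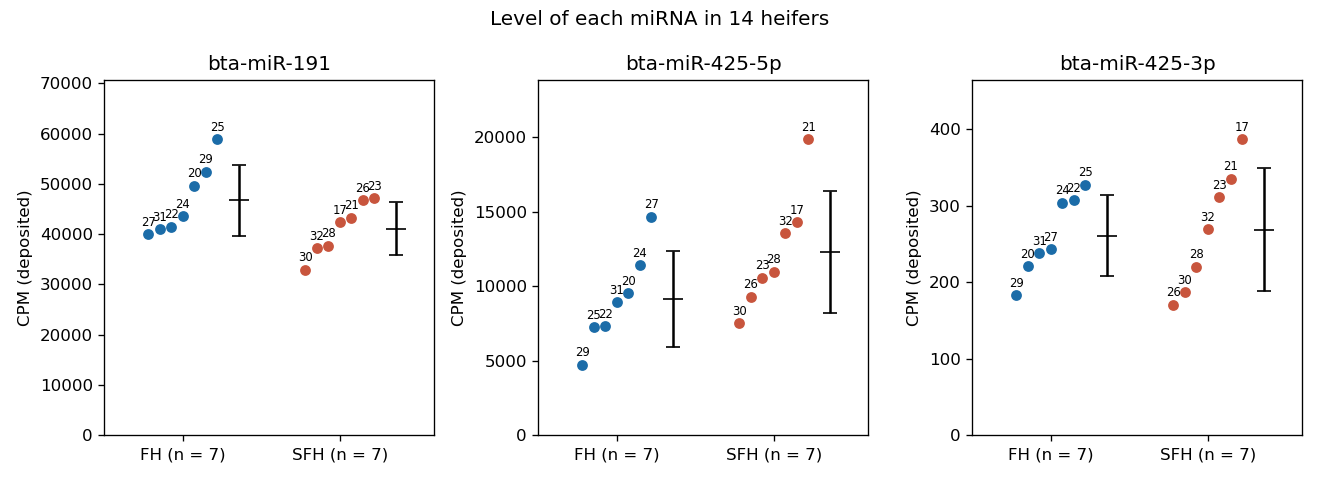
Deposited CPM (vertical axis, from 0) of each miRNA in FH and SFH heifers. Points are single heifers with their numbers, in order of value, and the bar beside each group is the mean ± SD (n = 7). bta-miR-191 ranges from 32935 to 58871 CPM, bta-miR-425-5p from 4738 to 19881 and bta-miR-425-3p from 171 to 387, with overlapping groups in each panel.

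bta-miR-191 had 68061 to 278561 counts per heifer and bta-miR-425-5p 13386 to 80279, and bta-miR-425-3p had 444 to 1550. The largest SD that counting alone gives in any heifer was 0.01 on the log2 scale for bta-miR-191, 0.01 for bta-miR-425-5p and 0.07 for bta-miR-425-3p. PCR copies were not marked, and these SDs cover counting error only. Over the 14 heifers the SD of the values was 0.27, 0.48 and 0.33 in the same order, and the sources of this spread were not tested. Within groups the SD on the log2 scale was 0.25 for bta-miR-191 and 0.45 for bta-miR-425-5p. Among the 50 most abundant miRNAs the median SD was 0.34, and 9 of them had a smaller SD than bta-miR-191 and 37 a smaller SD than bta-miR-425-5p. bta-miR-425-5p was thus among the more variable miRNAs of its abundance. Over all 341 names, many of them at low counts, the median SD was 0.91.

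The ratio of products from one library does not depend on library scaling. It compares reads, and neither how efficiently each miRNA enters a library nor how stable it is was measured. bta-miR-191 exceeded bta-miR-425-5p in all 14 heifers, by 2.18-fold in SFH heifer 21 and by 11.1-fold in FH heifer 29. In FH the log2 ratio was lowest at 1.44 and highest at 3.47, with a median of 2.38, and in SFH it was lowest at 1.123 and highest at 2.33, with a median of 1.78. All 7 SFH heifers were below the FH median, and 4 FH heifers were above every SFH heifer. However, FH heifer 27 was at 1.44, below all but 1 of the SFH heifers.

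FH had a mean log2 ratio of 2.42 ± 0.67 and SFH of 1.79 ± 0.44 (SD, n = 7 each). The difference of SFH minus FH was -0.63 (SE 0.30), with p = 0.0583 in the exact two-sided permutation test over 3432 arrangements and 0.120 after Benjamini-Hochberg adjustment over 3 ratios. It did not pass the threshold. Leaving out 1 heifer moved it past 0.05 in 3 of the 14 cases: exact p was 0.0455 without FH heifer 24, 0.0134 without FH heifer 27 and 0.0414 without SFH heifer 26, over a range of p from 0.0134 to 0.119. As background, the ratio of any pair of tested miRNAs with different counts had an exact p of at most 0.05 in 3851 of 55278 pairs (6.97%). The share was 10.5% for bta-miR-191 against each of the other names (35 of 332) and 8.43% for bta-miR-425-5p (28 of 332).

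Expressed as shares of the 3 products, bta-miR-191 made up 83.1% ± 6.16 in FH and 76.8% ± 5.39 in SFH (SD, n = 7 each), and bta-miR-425-5p 16.5% ± 6.13 and 22.7% ± 5.32. The exact permutation p was 0.0676 and 0.0682. The share of bta-miR-425-5p ran from 8.26% in FH heifer 29 to 31.3% in SFH heifer 21. The 3 products together reached 56091 ± 5865 CPM (FH) and 53654 ± 7453 CPM (SFH; SD, n = 7 each). The log2 difference of this sum was -0.07 on deposited CPM (exact permutation p = 0.494) and -0.14 on TMM-normalized CPM (exact permutation p = 0.240). The sum is set mainly by bta-miR-191.

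The arms of the miR-425 hairpin were far from equal. bta-miR-425-5p exceeded bta-miR-425-3p by 22.2-fold in FH heifer 25 and by 60.2-fold in FH heifer 27, the lowest and highest of the 14 heifers. The log2 ratio of 5p to 3p had a median of 5.22 in FH (4.47 to 5.91) and 5.64 in SFH (5.08 to 5.89). Both ends of the range were FH heifers, and 2 SFH heifers were below the FH median. FH had a mean of 5.08 ± 0.52 and SFH of 5.51 ± 0.30 (SD, n = 7 each). The difference was 0.43 (SE 0.23), with an exact permutation p of 0.0798 and 0.120 after adjustment over 3 ratios; without FH heifer 27 it was 0.57 with an exact p of 0.0169. Without FH heifer 25 it was 0.33 with an exact p of 0.156, the highest p with 1 heifer fewer, and FH heifer 27 was the only one of the 14 whose removal moved the p past 0.05.

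Both arms were tested for 31 hairpin names, of which 30 had distinct counts (bta-miR-10174 and bta-miR-23b had the same counts). Across these 30 the median absolute log2 ratio of the arms was 2.53. The mean log2 ratio farthest from 0 was that of bta-miR-10174 at -11.79 (3p higher), and miR-425 was in place 9 at 5.29. Some hairpins placed above miR-425 had an arm at a mean of a few CPM: 6.45 for bta-miR-10174-5p, 2.39 for bta-miR-2411-5p and 5.04 for bta-miR-362-3p. Ratios with an arm that low depend on the pseudocount, and so may the place of miR-425. The mean nearest to 0 was that of bta-miR-2431 at -0.03, with a within-group SD of 2.83, so that single heifers went both ways; it was -0.08 with an SD of 0.71 for bta-miR-423. The within-group SD of the arm ratio was 0.43 for miR-425. For the 6 other hairpins with both arms above a mean of 100 CPM, a limit chosen after the values were seen, it was 0.41 (bta-miR-151) to 0.96 (bta-let-7a). The median over 30 hairpins, many with an arm at a few CPM, was 1.59. An exact p of at most 0.05 for the arm ratio was found for 1 of 30 hairpins (3.33%), which was not miR-425.

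For bta-miR-191 to bta-miR-425-3p, FH had a mean log2 ratio of 7.50 ± 0.38 and SFH of 7.30 ± 0.42 (SD, n = 7 each). The groups overlapped over most of their range, 7.07 to 8.16 in FH and 6.77 to 8.10 in SFH. The difference was -0.20 (SE 0.21), with an exact permutation p of 0.373, also 0.373 after adjustment. With 1 heifer left out it was -0.33 to -0.09, with an exact permutation p of 0.0979 to 0.681.

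**Figure D2:**
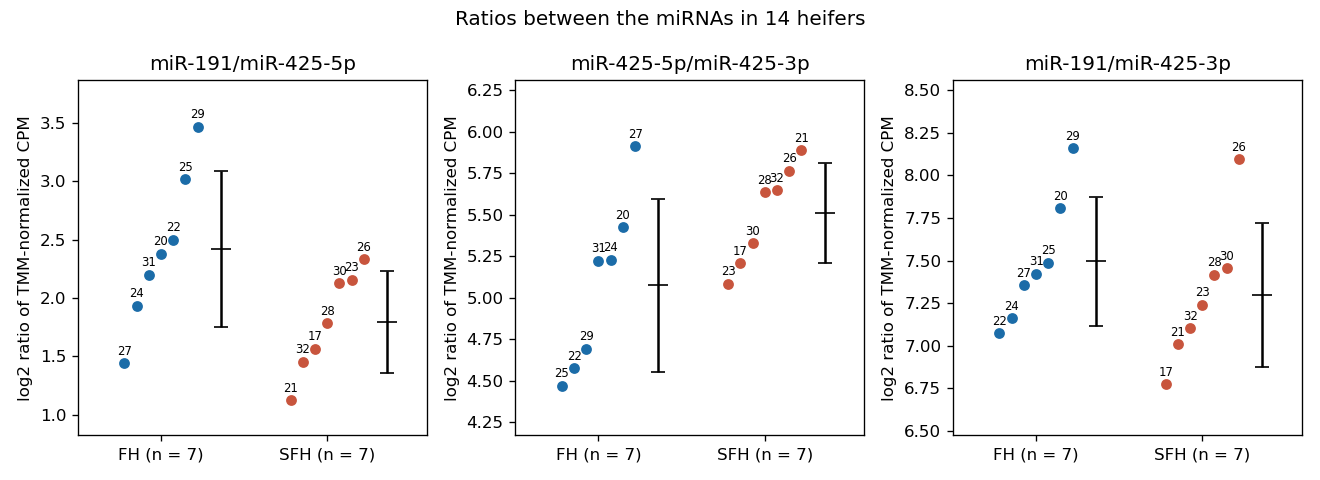
Log2 ratio of TMM-normalized CPM (vertical axis, not from 0) between the miRNAs in each heifer. Points are single heifers with their numbers, in order of value, and the bar beside each group is the mean ± SD (n = 7). The ratio of miR-191 to miR-425-5p is 1.123 to 2.33 in SFH and 1.44 to 3.47 in FH, and the groups overlap in every panel.

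Whether the products were high or low in the same heifers was examined over 3 pairs. A shared primary transcript was not measured. bta-miR-191 and bta-miR-425-5p had a Pearson r of -0.40 over the 14 heifers (permutation p = 0.159, adjusted 0.282 over 3 pairs) and a Spearman rho of -0.23 (permutation p = 0.427). Without FH heifers 25 and 29, the pair farthest from the median of bta-miR-191, r was 0.12, so the negative sign rests on them. Within groups r was -0.57 in FH (exact p = 0.188) and 0.24 in SFH (exact p = 0.613). FH heifer 29 combined the highest scaled bta-miR-191 with the lowest bta-miR-425-5p, and it also had the lowest TMM factor, 0.817. Of the other 340 names, bta-miR-425-5p had place 272 in order of r with bta-miR-191, where the median r was -0.06.

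The arms bta-miR-425-5p and bta-miR-425-3p had r = 0.37 (permutation p = 0.188, adjusted 0.282) and rho = 0.36 (permutation p = 0.204), and r was 0.18 without FH heifer 29 and SFH heifer 21. Within SFH r was 0.75 (exact p = 0.0438, adjusted 0.132 over 3 pairs) and rho 0.82 (exact p = 0.0341). Within FH r was 0.01 (exact p = 0.983), and the difference between the groups was not tested. In comparison, the median r between the arms over 30 hairpins, many with an arm at a few CPM, was 0.11. Of these, 7 hairpins had a higher r than miR-425. For the 6 other hairpins with both arms above a mean of 100 CPM, r was higher in bta-miR-142 (0.58), bta-miR-151 (0.53) and bta-miR-423 (0.48). It was lower in bta-miR-22 (0.12), bta-miR-6119 (-0.14) and bta-let-7a (-0.25). bta-miR-191 and bta-miR-425-3p had r = 0.12 (permutation p = 0.670, adjusted 0.670), rho = 0.14 (permutation p = 0.637) and r = 0.08 without FH heifers 25 and 29. Within groups their r was 0.02 in FH and 0.18 in SFH.

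**Figure D3:**
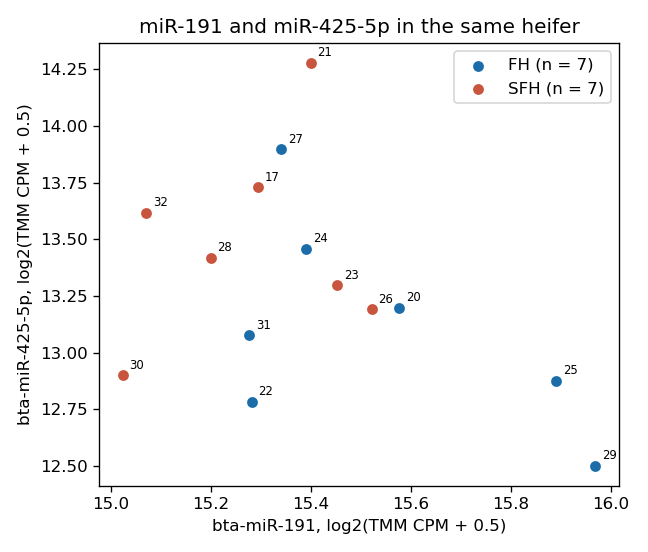
bta-miR-191 (horizontal axis) against bta-miR-425-5p (vertical axis) in the same heifer, both as log2(TMM-normalized CPM + 0.5), neither axis from 0. Each point is 1 heifer with its number. Pearson r is -0.40 over 14 heifers and 0.12 without FH heifers 25 and 29 at the lower right.

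The miRNAs with the most similar pattern, by r over the 14 heifers, were named for each product as a description. For bta-miR-191 they were bta-let-7d (r = 0.91), bta-miR-6529a (0.82) and bta-miR-4286 (0.81). For bta-miR-425-5p they were bta-miR-151-3p (0.85), bta-miR-10a (0.84) and bta-miR-423-3p (0.70). For bta-miR-425-3p they were bta-miR-224 (0.72), bta-miR-502a (0.70) and bta-miR-191b (0.66). The last rests on values set by the pseudocount: bta-miR-191b had 0 counts in 4 heifers, and over the other 10, examined after the values were seen, r was 0.10. bta-miR-502a had 0 counts in 3 heifers, and r was 0.69 over the other 11. None of the 3 products was among the 3 closest of another.

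In order of mean CPM the products did not stand clear of their neighbours. bta-let-7g was next above bta-miR-191 with 50411 ± 5746 CPM (SD, n = 14) and was higher in 11 of 14 heifers, and bta-miR-26b was next below with 43049.9 ± 6223 CPM and was higher in 6. bta-miR-10174-3p, whose counts are those of bta-miR-23b-3p, was next above bta-miR-425-5p and higher in 8 heifers, and bta-miR-221 next below and higher in 5. bta-miR-362-5p was next above bta-miR-425-3p and higher in 5 heifers, and bta-miR-574 next below and higher in 5. The mean of each neighbour lay within 1 SD of the product it adjoins.

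Other names that begin alike were scarce. bta-miR-191b had 0 to 76 counts per heifer, with 0 in 2 FH and 2 SFH heifers. The 3 counts that a count of 0 allows are 1.33 and 0.666 CPM in FH heifers 20 and 29, and 1.15 and 0.758 CPM in SFH heifers 26 and 30. Its log2 fold change was -1.08 (SE 1.32), with an edgeR p of 0.423 and an adjusted p of 0.947. bta-miR-1911, a separate miRNA despite its name, had 0 counts in all 14 heifers.

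Pairs made at other loci were taken for comparison, 4 of which could be formed; bta-miR-144 had 0 counts in all heifers, and bta-miR-182 and bta-miR-183 did not pass the filter. bta-miR-221 and bta-miR-222 kept the closest ratio, with a within-group SD of 0.17 on the log2 scale and r = 0.86. For bta-miR-191 and bta-miR-425-5p the SD was 0.57. The SD was 0.81 for bta-miR-30d and bta-miR-30b-5p, 0.98 for bta-miR-99b and bta-miR-125a, and 1.78 for bta-miR-143 and bta-miR-145. The last 2 SDs each include 1 FH heifer far from its group. For bta-miR-99b to bta-miR-125a, FH heifer 29 was at a log2 ratio of -5.52, against -3.29 to -1.91 in the other FH heifers. For bta-miR-143 to bta-miR-145, FH heifer 22 was at 8.03. The spread without these heifers was not examined. The difference in log2 ratio of SFH minus FH was 0.20 (exact permutation p = 0.0524) for bta-miR-221 to bta-miR-222 and 1.02 (exact permutation p = 0.0396) for bta-miR-99b to bta-miR-125a, each with an adjusted p of 0.105 over 4 pairs. The exact permutation p was 0.886 for bta-miR-30d to bta-miR-30b-5p and 0.375 for bta-miR-143 to bta-miR-145 (difference -0.90). bta-miR-145 had 0 counts in FH heifer 22, whose log2 ratio of 8.03 is set by the pseudocount; without that heifer the difference was -0.28 (exact permutation p = 0.728). None passed after adjustment. The difference for bta-miR-99b to bta-miR-125a rests in part on FH heifer 29, where bta-miR-99b was at 12.2 CPM against 143 to 211 CPM in the other FH heifers; without it the difference was 0.58 (exact permutation p = 0.0787). Over the 14 fits with 1 heifer fewer, the exact p was 0.00816 to 0.0909. It was above 0.05 in 9 of the 14 fits, without FH heifer 25, 29 or 31, or SFH heifer 17, 21, 23, 26, 30 or 32. For bta-miR-221 to bta-miR-222 it was 0.0227 to 0.104, and at most 0.05 in 4 of them (without FH heifer 22 or 31, or SFH heifer 21 or 30).

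Markers of blood cell types were set beside the products, as log2 of the summed deposited CPM + 0.5, without TMM scaling. The lymphocyte list (bta-miR-150 and bta-miR-342, both tested) summed to 78721 ± 17731 CPM (FH) and 77699 ± 23366 CPM (SFH; SD, n = 7 each; exact permutation p = 0.839), mostly bta-miR-150. The myeloid marker bta-miR-223 was at 16435 ± 4122 CPM (FH) and 20291 ± 4630 CPM (SFH; exact permutation p = 0.121). On the TMM scale used for the products its difference was 0.24 with an exact permutation p of 0.245. The list of all leukocytes, led by bta-miR-142-5p, had 4 of 4 miRNAs tested and summed to 20064 ± 5053 CPM (FH) and 22998 ± 5990 CPM (SFH; exact permutation p = 0.362). Its members went both ways: on the TMM scale bta-miR-142-5p differed by 0.37 (exact permutation p = 0.210), and bta-miR-155, at 8522 CPM in FH and 7532 CPM in SFH, by -0.24 (exact permutation p = 0.0787). The defining leukocyte markers were thus present in both groups. The erythroid list, led by bta-miR-451 with bta-miR-144 at 0, summed to 2493 ± 846 CPM (FH) and 3482 ± 2724 CPM (SFH, exact permutation p = 0.547). The SFH mean includes heifer 30 at 9236 CPM, and the medians were 2166 CPM (FH) and 2416 CPM (SFH). Its other member with counts, bta-miR-486, had means of 1081 CPM (FH) and 1084 CPM (SFH).

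Of the other tissues, the epithelial list was led by bta-miR-200c and summed to 185 ± 34.0 CPM (FH) and 164 ± 54.9 CPM (SFH). bta-miR-122 of liver was at 0 in 5 FH and 5 SFH heifers, and the muscle list, led by bta-miR-1, had a median of 5.71 CPM in FH and 7.10 CPM in SFH. The exact permutation p was 0.432 for the epithelial, 0.706 for the liver and 0.578 for the muscle list.

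The products were related to depth and to the lymphocyte, myeloid and erythroid sums, 12 relations in all. bta-miR-425-5p was lower where the lymphocyte sum was higher, with r = -0.74 (permutation p = 0.00262, adjusted 0.0314 over 12) and rho = -0.66 (permutation p = 0.0122). Within FH r was -0.71 (exact p = 0.0722, adjusted 0.823 over 12) and rho -0.57 (exact p = 0.200), and r was -0.78 without heifers 20 and 27. Within SFH r was -0.86 (exact p = 0.0183, adjusted 0.219 over 12) and rho -0.68 (exact p = 0.1095), and r was -0.36 without heifers 21 and 30. The relation did not pass within either group after adjustment. Without FH heifer 27 and SFH heifer 21, the heifers farthest from the median with sums of 49439 and 42775 CPM, r was -0.41, so that the size of the relation rests in part on them. These are also the heifers with the highest bta-miR-425-5p of their groups. bta-miR-425-3p had r = -0.59 with the same sum (permutation p = 0.0282, adjusted 0.169), rho = -0.62 (permutation p = 0.0217) and r = -0.65 without the same 2 heifers, with -0.35 in FH and -0.71 in SFH. bta-miR-191 had r = 0.05 with it (permutation p = 0.864, adjusted 0.864) and rho = -0.02 (permutation p = 0.938), and r = 0.02 without those heifers.

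The other 9 relations had adjusted p-values of 0.548 to 0.864. In particular, r with the log2 total count was 0.38 for bta-miR-191, -0.23 for bta-miR-425-5p and -0.22 for bta-miR-425-3p, with permutation p of 0.183, 0.436 and 0.436. The log2 ratio of bta-miR-191 to bta-miR-425-5p, examined after the values had been seen, had r = 0.58 with the lymphocyte sum (permutation p = 0.0307, adjusted 0.123 over 4 relations), rho = 0.60 (permutation p = 0.0262) and r = 0.27 without FH heifer 27 and SFH heifer 21. Within groups it was 0.59 in FH and 0.77 in SFH. CPM values of 1 library share a total, so that an abundant marker and another miRNA are not independent measures. The part of cell composition in the ratio of the products was not tested.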

How the data were processed

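Small RNA from PWBC of 14 heifers, 1 library each, was sequenced. The authors trimmed reads with Cutadapt, mapped them with miRDeep2 to ARS-UCD1.2 and miRBase, and deposited raw counts per mature miRNA and precursor without normalization. The deposited CPM values are counts scaled to the same total (CPM) over the 341 names that the authors retained, which was checked on all heifers. Of names with several rows, the row with the highest total was kept. Among the 341 names, 8 pairs had identical counts, which left 333 distinct profiles; ratios and arms were compared over distinct profiles. After TMM scaling, counts were tested by the quasi-likelihood method in edgeR 4.0.16 (R 4.3.3), group only, with Benjamini-Hochberg adjustment over 341 names; DESeq2 1.42.0 and limma 3.58.1 were alternatives. Standard errors are the fold change divided by the root of F. Exact two-sided permutation tests compared single values and ratios (smallest p 0.000583), and correlations by 100000 permutations, or all pairings within groups. Other steps ran in Python 3.11.15 with scipy 1.17.1, pandas 2.3.3 and numpy 2.4.6, and the tests were tested on simulated data.

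The names given are the 3 products, names that begin alike, the 3 closest by r, the neighbours in mean CPM, pairs of other loci, arms of other hairpins and marker lists. Grouping by shared seed was not done, as no sequence table was used here. The products and lists were chosen with earlier results of these data known. The backgrounds over ratios, the fit on distinct profiles, the heifers left out for pairs of other loci and at 0 counts of a closest name, the sum of products on deposited CPM and the relations of the ratio with markers were chosen after seeing the data.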

Additional observations from a re-analysis of the deposited data

Results flagged for a closer look

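Among 30 groups of 7 values examined for a heifer far from the others, 3 stood out. The groups were the products, bta-miR-191b, their ratios, the marker sums and the total count, in FH and in SFH. The rule used flags about 1 in 20 groups of independent, normally distributed values. The ratios are made from the products, and the muscle sums were at a few CPM in most heifers, so that rate does not measure chance here. None of the 3 was a value of bta-miR-191, bta-miR-425-5p or bta-miR-425-3p, or of their ratios. The muscle marker sum was 85.6 CPM in FH heifer 20, against a group median of 5.71 CPM, and 275 CPM in SFH heifer 21, against 7.10 CPM. The erythroid marker sum was 9236 CPM in SFH heifer 30, against a group median of 2416 CPM. SFH heifer 21 also had the highest bta-miR-425-5p and SFH heifer 30 the lowest bta-miR-191 of the 14 heifers. Over the 14 heifers r of bta-miR-191 with the erythroid sum was -0.40 (permutation p = 0.156, adjusted 0.548 over 12 relations) and rho -0.42 (permutation p = 0.134), and r was -0.10 without SFH heifers 17 and 30. Within SFH r was -0.72 (exact p = 0.0663, adjusted 0.290) and within FH -0.03. A relation with the muscle sum was not tested.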

How the results depend on the processing

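The log2 fold change of bta-miR-191 was negative and that of bta-miR-425-5p positive in every setting run. Upper-quartile scaling, library totals, limma-voom and no filter moved the median log2 fold change of all names from 0.06 to 0.12, 0.12, 0.14 and 0.11. With the first 2, the log2 fold change of bta-miR-425-3p was 0.0420 and 0.0442, against -0.02. Minus the median it was -0.08 and -0.07, against -0.08, so relative to the median it was not higher in SFH. The permutation difference of bta-miR-425-3p was 0.0135 on deposited CPM. bta-miR-191 reached an edgeR p of 0.0425 (-0.31) with CPM of at least 1 in all heifers and 0.0460 (-0.34) with every precursor row. bta-miR-425-5p reached 0.0496 (0.46) without SFH heifer 30. Each was below the fold threshold, and the adjusted edgeR p was 0.508, 0.875 and 0.840 in the same order. Names with an unadjusted edgeR p of at most 0.05 were 18 of 203, 24 of 434 and 19 of 341. In the first 2 of these settings, which test other sets of names, the median was -0.02 and -0.01, and bta-miR-191 minus the median was -0.29 and -0.33, against -0.32. The count past the thresholds was 13, and it was 23 with limma-voom, 126 of 614 with no filter, 20 with every precursor row and 14 of 333 on distinct profiles, a setting added after seeing the data. Adjusted calls were 2 with DESeq2 and 1 with every precursor row. The split of 5 higher and 8 lower became 7 and 7 with upper-quartile scaling and with library totals, 15 and 8 with limma-voom, 81 and 45 with no filter, and 4 and 16 with every precursor row. With 1 heifer left out, the count was 11 to 22 (22 without FH heifer 24 and 20 without SFH heifer 26) and 0 to 0 after adjustment. The log2 fold change was then -0.31 to -0.20 for bta-miR-191, 0.21 to 0.54 for bta-miR-425-5p and -0.12 to 0.0564 for bta-miR-425-3p. The difference in log2 ratio was -0.79 to -0.45 for miR-191 to miR-425-5p, 0.33 to 0.57 for miR-425-5p to miR-425-3p and -0.33 to -0.09 for miR-191 to miR-425-3p. The r was -0.56 to -0.15 for miR-191 and miR-425-5p (-0.56 with permutation p = 0.0459 without SFH heifer 30), 0.23 to 0.51 for the arms and -0.0683 to 0.29 for miR-191 and miR-425-3p, negative without FH heifer 25 or SFH heifer 30. For miR-191 with the lymphocyte sum, r was 0.05 and rho -0.0242. The causes were not tested. The ratio of bta-miR-30d to bta-miR-30b-5p, also run after seeing the data, differed by -0.31 to 0.0994 with 1 heifer left out. The r of bta-miR-425-3p and bta-miR-191b fell from 0.66 to 0.10 without the 4 heifers at 0 counts of bta-miR-191b, run after seeing the data. Of 269 alternative values of differences and correlations, 233 kept their direction and side of the threshold. This tally does not hold r of miR-191 and miR-425-5p without FH heifers 25 and 29, which turned from -0.40 to 0.12. Of the alternative counts past the thresholds, 19 stayed within 1.5 times and 5 did not. For adjusted counts a factor has no meaning, as the main count was 0: they were again 0 in 22 settings and above 0 in 2.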
